A study of Mus musculus with 62 samples.

Results

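Transcripts of 8 adipokine genes were followed in white fat of mice carrying melanoma cells: Lep, Adipoq, Retn, Cfd, Nampt, Apln, Nrg4 and Rarres2. They were taken by name from the 47643 genes of the deposited table, as a list of known adipokines. The list was chosen with earlier results of these data known. All 8 were present and all 8 passed the filter on low values, an average of 0.5 TPM or more across the 62 libraries. TPM is a gene's share of the transcripts in a library, corrected for transcript length, so levels can be set side by side between genes.

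Female mice received cachectic melanoma cells (CAC), melanoma cells that do not cause cachexia (NCAC), or a mock injection (Con). Whole white fat was sampled at 2, 4, 6 and 8 weeks, with 5 libraries in each of the 12 groups except for 7 in CAC at 8 weeks. Cachexia is the wasting of fat and muscle that accompanies some tumours. The series design describes the mice as NCI Ath/nude females that were 2 months old, whereas the strain entry of the samples reads C57BL6/J, and this conflict was not resolved. Athymic nude mice lack a thymus and have few mature T cells. The cell lines, the fat depot and any pooling of animals were not given in the sources used here, and the treatment entry of every sample named cachectic cells, so the arm was taken from the sample descriptions. Libraries had 11783 to 14470 genes at or above 1 TPM, and mitochondrially encoded genes made up 17.2 to 44.4% of the TPM total. The deposited values hold no counts, so the depth of the libraries is unknown and no counting interval is given. All 16 adipocyte markers were present in each arm, and their summed level ran from 29846 to 64731 TPM in CAC, 46621 to 80100.2 TPM in NCAC and 27646 to 74470.3 TPM in mock libraries of weeks 6 and 8. The 5 urothelial genes measured, which mark the lining of the bladder and not fat, summed to over 100 TPM in 16 of the 62 libraries.

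Adipokines are proteins that fat releases into the blood or onto neighbouring cells. Leptin, the product of Lep, is made by adipocytes roughly in proportion to the fat they store, and it acts on receptors in the brain that restrain feeding. Adiponectin (Adipoq), resistin (Retn) and adipsin (Cfd) are made almost only by adipocytes in the mouse. Nampt (visfatin), apelin (Apln), neuregulin 4 (Nrg4) and chemerin (Rarres2) are also made by other cells.

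The promoters of the 5 members whose transcripts passed a test at weeks 6 and 8 are printed here. Each shows the 250 bases before the RefSeq start of transcription, 5′ to 3′ on the strand of the gene, from RefSeq on GRCm38.p6. Capitals mark exact matches on either strand to the C/EBP palindrome TTGCGCAA or the GC box GGGCGG. C/EBP proteins are transcription factors of adipocyte maturation, and Sp1 and its relatives bind GC boxes.
Lep (chr6:29059971-29060220, + strand): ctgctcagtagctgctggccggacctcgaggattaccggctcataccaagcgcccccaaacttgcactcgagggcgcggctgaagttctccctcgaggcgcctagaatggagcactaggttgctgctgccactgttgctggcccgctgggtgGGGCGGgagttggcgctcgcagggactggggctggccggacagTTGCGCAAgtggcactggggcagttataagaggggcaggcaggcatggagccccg
Adipoq (chr16:23146286-23146535, + strand): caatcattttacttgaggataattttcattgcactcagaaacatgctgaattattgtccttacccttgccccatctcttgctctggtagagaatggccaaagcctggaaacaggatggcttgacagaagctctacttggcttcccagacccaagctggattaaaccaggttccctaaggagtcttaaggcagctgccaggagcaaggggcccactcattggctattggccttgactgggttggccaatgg
Retn (chr8:3655520-3655769, + strand): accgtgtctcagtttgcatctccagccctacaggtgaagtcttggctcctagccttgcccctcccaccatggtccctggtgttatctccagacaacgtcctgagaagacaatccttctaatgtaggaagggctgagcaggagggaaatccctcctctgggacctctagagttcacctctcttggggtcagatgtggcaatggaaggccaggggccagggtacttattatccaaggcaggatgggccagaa
Cfd (chr10:79890603-79890852, + strand): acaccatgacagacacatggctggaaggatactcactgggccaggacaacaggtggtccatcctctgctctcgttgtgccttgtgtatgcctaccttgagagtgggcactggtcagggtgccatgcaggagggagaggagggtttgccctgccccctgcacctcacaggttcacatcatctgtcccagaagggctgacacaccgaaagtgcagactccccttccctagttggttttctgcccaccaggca
Nampt (chr12:32820085-32820334, + strand): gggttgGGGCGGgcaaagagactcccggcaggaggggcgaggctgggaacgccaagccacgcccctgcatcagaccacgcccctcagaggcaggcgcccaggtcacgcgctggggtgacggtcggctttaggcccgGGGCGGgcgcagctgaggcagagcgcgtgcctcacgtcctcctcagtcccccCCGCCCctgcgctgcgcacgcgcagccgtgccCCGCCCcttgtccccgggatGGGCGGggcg
Lep held the palindrome at positions -55 to -48 before its start, a run present in 54 of 32851 promoters of the same length (0.164%). It also held a GC box at -98 to -93. Nampt held 5 GC boxes, a motif found in 32.7% of promoters, and 75.6% of its bases were G or C against a median of 52.4% over all promoters. Adipoq, Retn and Cfd held neither run in this window. Promoters were matched for 7 members, namely all but Rarres2, and of those not printed Apln held 1 GC box and Nrg4 held neither motif. Other patterns were searched as well: a looser C/EBP pattern (TTNCNNAA, N being any base), a TATA box, an E-box, a STAT site and a glucocorticoid response element. The looser C/EBP pattern, found in 36.8% of promoters, matched in Lep, in Adipoq (-81 to -74) and in Nrg4. The palindrome of Lep was thus 1 of several motifs looked for. These matches describe letters only. In GENCODE M21 on GRCm38 the gene bodies lie on chromosome 6 for Lep (29060220 to 29073877), chromosome 16 for Adipoq (23146536 to 23158028), chromosome 8 for Retn (3655770 to 3660110) and chromosome 10 for Cfd (79890853 to 79892655). Nampt lies on chromosome 12 (32819545 to 32853349), Apln on chromosome X (48025146 to 48034853), Nrg4 on chromosome 9 (55220222 to 55326844) and Rarres2 on chromosome 6 (48569696 to 48572789). The windows used for Nampt and Nrg4 lie inside these gene bodies. GENCODE thus places an earlier start for both genes than the RefSeq start used here. Nrg4 shares bases of exon with Fbxo22 and Rarres2 with Lrrc61, both on the opposite strand. The strand setting of the counting was not given in the sources used here, so part of the reads of these genes may belong to their partners.

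The members differed widely in abundance. Cfd was the most abundant, with a median of 28319 TPM over the 62 libraries, which was 2.83% of all transcripts. Adipoq had a median of 3867 TPM and Retn 2342 TPM. Rarres2 (118 TPM), Lep (109.8 TPM) and Nampt (88.3 TPM) followed, with Nrg4 at 48.3 TPM and Apln at 5.38 TPM. Lep differed most between libraries of 1 group. Its pooled SD within groups was 1.68 on the log2(TPM + 1) scale, and only 101 of 10069 genes averaging 5 TPM or more had a larger one. The median gene had 0.35. Adipoq (0.38), Retn (0.41) and Cfd (0.42) lay close to that median, while Nampt was at 0.51, Nrg4 at 0.68, Rarres2 at 0.83 and Apln at 0.84. When the 12 groups were put in order of mean log2 level, all 11 neighbouring pairs overlapped for each member. For Lep the 4 CAC groups were the 4 lowest, in the order week 6, week 8, week 4 and week 2, and the highest was NCAC at 2 weeks.

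Leptin transcripts were far lower in CAC fat than in both other arms at 6 and 8 weeks. Over the 2 weeks together Lep averaged 20.3 ± 20.01 TPM in CAC fat (SD, n = 12), against 217 ± 230.4 TPM in NCAC fat (n = 10) and 200.2 ± 166 TPM in mock fat (n = 10). At 6 weeks the CAC libraries had 1.48, 53.2, 37.2, 4.28 and 3.90 TPM, those of NCAC had 19.5, 173, 749, 103 and 114 TPM, and those of mock had 319, 34.5, 89.0, 453 and 280.1 TPM. The 2 higher CAC libraries overlapped the lowest mock library, and the other 3 lay below every library of both other arms. At 8 weeks the CAC libraries had 0.0212, 40.2, 50.4, 14.8, 20.9, 0.174 and 17.5 TPM, those of NCAC had 58.9, 310.05, 5.82, 443 and 196 TPM, and those of mock had 459.7, 49.7, 69.2, 175 and 73.2 TPM. Of the 7 CAC libraries, 6 lay below every mock library and 1 exceeded the lowest of them. An NCAC library at 5.82 TPM was lower than 5 of the 7 CAC libraries. Over both weeks 9 of 12 CAC libraries lay below every mock library of their week and 5 of 12 below every NCAC library. Levels under 10 TPM occurred in 5 of these 12 CAC libraries and in 1 of the other 50 libraries of the series. All p-values measure the spread between samples that the labels call replicates.

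**Figure D1:**
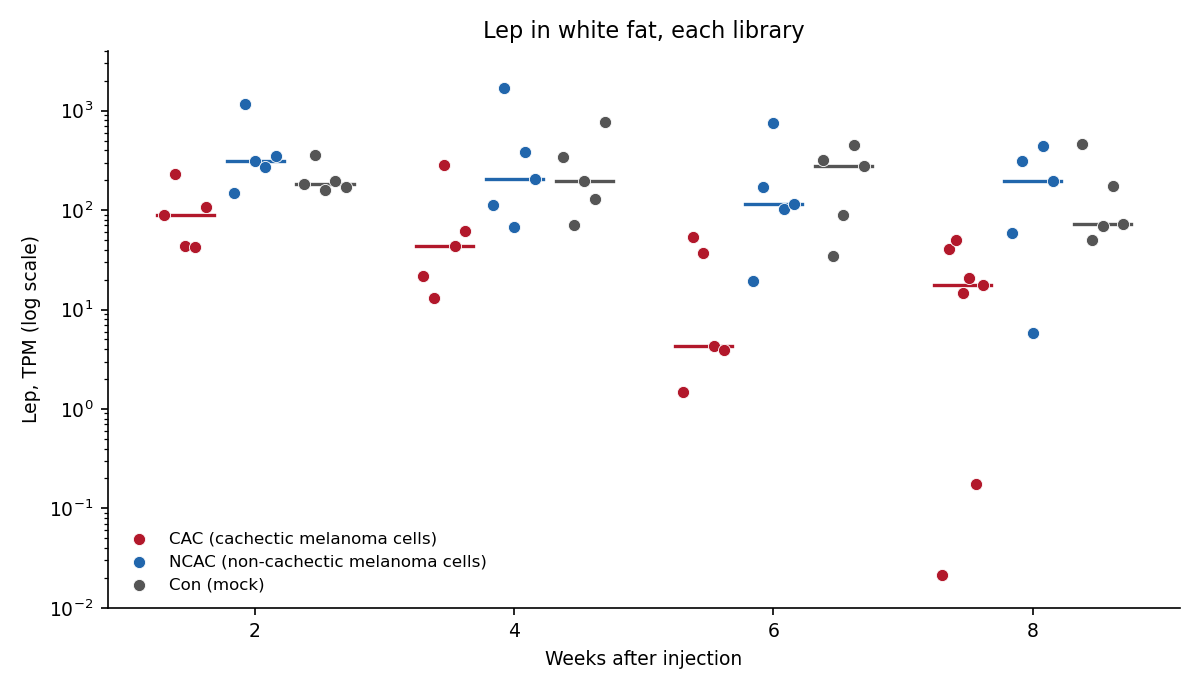
Lep level of each library in TPM on a log axis, by weeks after injection, for CAC, NCAC and Con. Each point is 1 library and each bar the group's median, and 5 CAC libraries of weeks 6 and 8 lie under 10 TPM.

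In limma on log2(TPM + 1), with week as a term and Benjamini-Hochberg adjustment over 14577 genes, the change of Lep in CAC against mock fat at weeks 6 and 8 was -3.69 (SE 0.73, limma adjusted p = 0.00283). That is 12.9-fold lower on this scale. Against NCAC fat it was -3.40 (SE 0.85, limma adjusted p = 0.0104), or 10.6-fold lower. Both calls held with any 1 of the 22 libraries left out, but with the urothelial sum as a covariate the change against NCAC fat was -3.14 and was not called (limma adjusted p = 0.0901). Against mock fat 3 of the 8 members were called, namely Lep, Cfd and Retn, where 11.6% of all genes were called, and against NCAC fat 4 of 8 were called, namely Lep, Adipoq, Cfd and Nampt, where 15.0% of all genes were. The 2 comparisons share the CAC libraries. Because the members were chosen with earlier results of these data known, their counts beside the shares of all genes are a description only. NCAC against mock fat gave no call among the 8 members, and limma called 0 of 14577 genes there (0.00%), with 308 at an unadjusted p under 0.05. Lep in that comparison was -0.30 (SE 0.73, 95% interval -1.83 to 1.23), so a several-fold difference in either direction lies within the interval. The median log2 change over the 8 members was 0.15 in CAC against mock fat and 0.02 in CAC against NCAC fat, beside -0.06 and 0.04 over all genes tested.

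**Figure D2:**
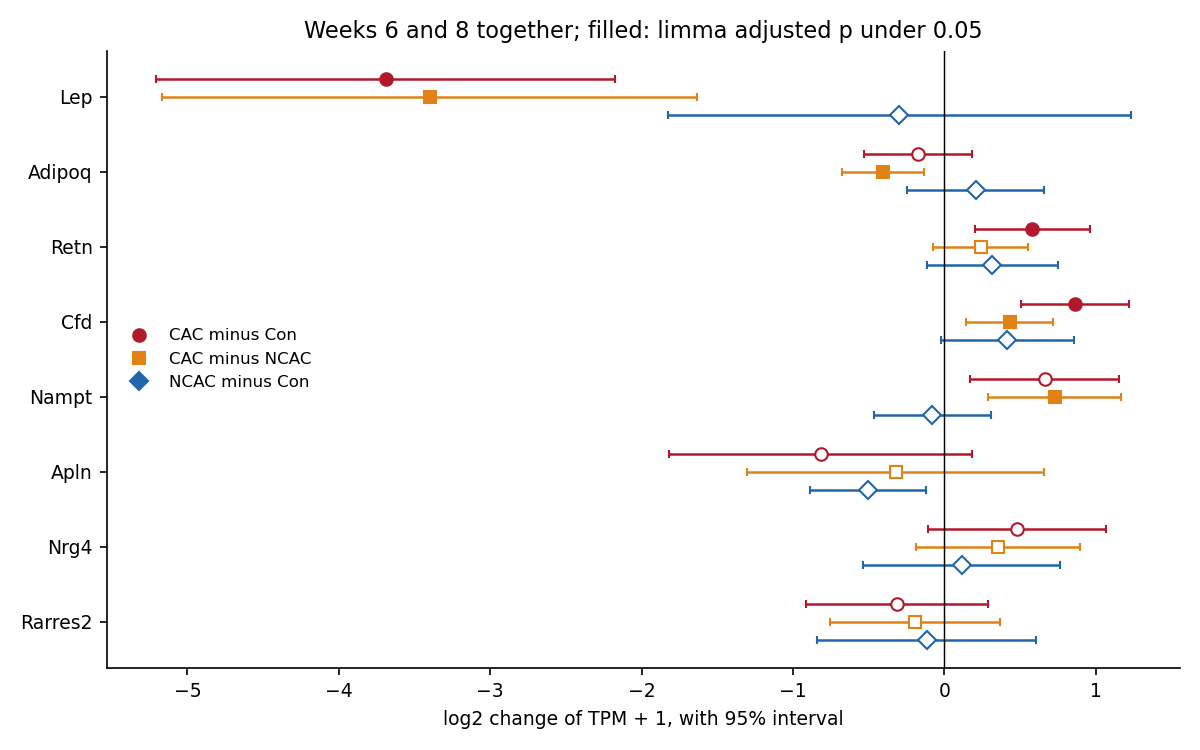
Change of each member on the log2(TPM + 1) scale at weeks 6 and 8 together, with its 95% interval, for CAC minus Con, CAC minus NCAC and NCAC minus Con. Filled symbols passed limma at an adjusted p under 0.05: Lep lies at -3.69 and -3.40 in the 2 CAC comparisons, and no symbol of NCAC minus Con is filled.

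CAC libraries of weeks 6 and 8 also held more urothelial transcripts, with 5.46 to 502 TPM summed over the 5 genes, against 6.48 to 36.0 TPM in NCAC and 2.36 to 109.5 TPM in mock libraries. Levels over 100 TPM occurred in 6 of the 12 CAC libraries, in 0 of the 10 NCAC libraries and in 1 of the 10 mock libraries. Without those 7 libraries the change of Lep against mock fat was -3.40 (limma adjusted p = 0.0869). Against NCAC fat it was -3.00 (limma adjusted p = 0.144). No member was called in either comparison, and against NCAC fat limma then called 251 genes higher and 79 lower in all. In that smaller set the changes of other members against mock fat were 0.87 for Cfd (limma adjusted p = 0.115) and 0.71 for Retn (limma adjusted p = 0.210). Against NCAC fat they were 0.45 for Cfd (limma adjusted p = 0.217), 0.57 for Nampt (limma adjusted p = 0.217) and -0.37 for Adipoq (limma adjusted p = 0.277). The 5 CAC libraries with Lep under 10 TPM had urothelial sums of 502, 5.46, 155, 87.1 and 182 TPM. Fibroblast and progenitor genes moved with Lep as well, with 6 of 10 lower and 0 higher against mock fat and summed levels of 728 to 2623 TPM in CAC, against 812 to 9179 TPM in mock libraries. Col3a1, a fibrillar collagen, was at 82.9 ± 47.5 TPM in CAC fat (SD, n = 12) and 604 ± 609.7 TPM in mock fat (n = 10). Mesothelial genes were lower for 4 of 6, and the brown or beige adipocyte genes were higher for 3 of 9 tested. Over all genes 4.94% were called higher and 6.65% lower against mock fat, and 8.60% and 6.39% against NCAC fat. Without the urothelial libraries 0 of the fibroblast, mesothelial and brown or beige genes were called against mock fat, where limma then called 82 genes higher and 36 lower in all. Of 5 neutrophil genes tested, 2 were higher and 0 lower against mock fat, namely S100a9 (1.19) and Csf3r (0.79), with 4 at an unadjusted p under 0.05, and 2 were higher and 1 lower against NCAC fat. Their summed level was 8.86 to 64.9 TPM in CAC, 14.2 to 41.5 TPM in NCAC and 7.26 to 80.2 TPM in mock libraries. Of the 10 macrophage genes 0 were called by limma, with 1 at an unadjusted p under 0.05. The part of these cell types in the changes of the members was not tested, and in whole tissue fewer adipocytes cannot be told apart from less RNA in each.

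Set against the mean log2 level of the 16 adipocyte markers in the same library, Lep differed by -6.63 ± 2.05 log2 units in CAC fat at 6 weeks (SD, n = 5), against -3.18 ± 1.68 in NCAC and -2.68 ± 1.53 in mock fat. This difference at 8 weeks was -6.30 ± 2.04 in CAC (n = 7), -3.54 ± 2.39 in NCAC and -3.02 ± 0.95 in mock fat (n = 5 each). With that mean as a covariate the change of Lep at weeks 6 and 8 was -3.42 against mock fat and stayed called, and it was -2.23 against NCAC fat with a limma adjusted p of 0.13.

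The lower Lep of CAC fat was visible at 2 and 4 weeks but was not called. At 2 weeks the CAC libraries ran from 42.3 to 231 TPM with a median of 88.5, those of NCAC from 149.95 to 1162 TPM with a median of 311, and those of mock from 161 to 359 TPM with a median of 182. Of 5 CAC libraries 4 lay below every mock library, and the change was -1.28 (SE 0.44, unadjusted p = 0.0139, limma adjusted p = 0.999). At 4 weeks CAC libraries ran from 13.1 to 284 TPM with a median of 43.6, NCAC libraries from 67.3 to 1670.2 TPM with a median of 208, and mock libraries from 70.5 to 759.7 TPM with a median of 198. Again 4 of 5 CAC libraries lay below every mock library, with a change of -2.17 (SE 0.83, unadjusted p = 0.0241, limma adjusted p near 1). With the adipocyte marker mean as a covariate the change at 4 weeks was -1.19. At each of these weeks limma called 1 gene against mock fat (0.00686% of those tested), which was no member. Against NCAC fat it called 0 genes at either week (0.00%), with 528 and 648 at an unadjusted p under 0.05. The shares of genes called at 6 and 8 weeks were 0.357% and 3.07% against mock fat, and 5.78% and 0.528% against NCAC fat. Taken alone, week 6 gave -3.98 (SE 0.94, limma adjusted p = 0.127) and week 8 gave -3.44 (SE 1.01, limma adjusted p = 0.0815). When all 62 libraries shared 1 estimate of the spread, both were called, with limma adjusted p = 0.0357 and 0.0192. Against NCAC fat the changes at weeks 2, 4, 6 and 8 were -2.04, -2.40, -3.57 and -3.25, with limma adjusted p from 0.0794 to 0.981. The adipocyte covariate brought week 4 to -1.25 and week 8 to -0.73 (limma adjusted p = 0.698). The effect against mock fat was 1.99 log2 units more negative in weeks 6 and 8 than in weeks 2 and 4 (contrast -1.99, SE 0.95, unadjusted p = 0.0436), and with a limma adjusted p of 0.618 the late effect was not shown to differ from the early one. No member was called for this contrast, where 0.144% of genes were, nor for the same contrast against NCAC fat, where 0.638% were. Mock fat at 8 weeks did not pass the test against mock fat at 2 weeks either (-0.81, SE 0.53, limma adjusted p = 0.789).

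The transcript of adipsin, the serine protease that activates the alternative complement pathway by cleaving factor B, rose in CAC fat. Cfd averaged 37480.1 ± 5948 TPM in CAC fat at weeks 6 and 8 (SD, n = 12), against 28358 ± 7716 TPM in NCAC and 21701 ± 7086 TPM in mock fat (n = 10 each). The CAC libraries at 8 weeks had 30797 to 46682 TPM with a median of 35945, the NCAC libraries had 25148, 29913, 42833, 22918 and 28285 TPM, and the mock libraries had 19142, 14095, 15829, 29240 and 20623 TPM. At that week all 7 CAC libraries exceeded each of the mock libraries, as was so for 0.906% of genes, and the NCAC range overlapped both. The change against mock fat was 0.86 over both weeks (SE 0.17, limma adjusted p = 0.00299), and 11 of the 12 exceeded the highest mock value of their week. Week 8 alone gave 0.92 (SE 0.21, limma adjusted p = 0.0373), the single call among the 8 members in any 1 week, where 3.07% of genes were called. It was lost when any 1 of 9 of the 12 libraries was left out (CAC replicates 2, 4, 5, 6 and 7 and mock replicates 1, 2, 3 and 5), with adjusted p up to 0.0852. Median-ratio scaling (limma adjusted p = 0.0604), removal of mitochondrially encoded genes (0.0662), the urothelial covariate (0.0663) and leaving out the urothelial libraries (0.410) lost it too. Against NCAC fat Cfd rose by 0.43 (SE 0.14, limma adjusted p = 0.0390). That call was lost in 12 of the 22 leave-one-out fits, with adjusted p up to 0.0834. The libraries left out in those fits were CAC 6 weeks replicates 3, 4 and 5, CAC 8 weeks replicates 4 and 7, NCAC 6 weeks replicates 1, 3 and 5 and NCAC 8 weeks replicates 1, 2, 4 and 5. It was also lost with median-ratio scaling (limma adjusted p = 0.190), all 62 libraries in 1 fit (0.101), removal of mitochondrially encoded genes (0.170) and the urothelial covariate (0.0548).

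Of the 7 other genes of the alternative complement pathway 2 rose and 1 fell in CAC fat against mock fat, and the count was the same against NCAC fat. Over all genes 4.94% were called higher and 6.65% lower against mock fat, and 8.60% and 6.39% against NCAC fat. C3 encodes the protein that the pathway cleaves. Its transcript was at 3206 ± 488 TPM in CAC fat (SD, n = 12) and 1461 ± 468 TPM in mock fat (n = 10). That change was 1.21 (SE 0.17, limma adjusted p = 0.000143). Masp1, a gene whose product MASP-3 activates pro-adipsin, was at 15.2 ± 14.2 TPM in CAC fat and 3.56 ± 1.70 TPM in mock fat, a change of 1.55 (SE 0.32). Cd55, a membrane inhibitor of the convertases, fell by 1.06 (SE 0.18). These 3 genes were called against mock fat in each of the 22 fits that left out 1 library and in each of the 10 other settings.

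The transcript of resistin, a protein named for the insulin resistance it causes in mice, was higher in CAC than in mock fat by less than Cfd. Retn averaged 2558 ± 573 TPM in CAC fat at weeks 6 and 8 (SD, n = 12), against 2161 ± 495.5 TPM in NCAC and 1784 ± 589 TPM in mock fat (n = 10 each). At 8 weeks the CAC libraries had 1647 to 3519 TPM with a median of 2406, NCAC libraries had 2153, 2179, 2621, 2277 and 2701 TPM, and mock libraries had 1607, 1002, 1684, 2602 and 1137 TPM. The 3 arms overlapped at that week, and over both weeks 7 of the 12 CAC values exceeded the highest mock value of their week. The change against mock fat was 0.58 (SE 0.18, limma adjusted p = 0.0417), and it missed the threshold with no filter on low values (0.0571), with median-ratio scaling (0.0899) and without mitochondrially encoded genes (0.111). Leaving out any 1 of 12 of the 22 libraries lost the call, with adjusted p up to 0.0863: CAC 6 weeks replicates 1, 3, 4 and 5, CAC 8 weeks replicates 3, 4, 5 and 7, mock 6 weeks replicate 5, and mock 8 weeks replicates 1, 2 and 5. Against NCAC fat the change was 0.24 (SE 0.15, limma adjusted p = 0.299, 95% interval -0.08 to 0.56). The adipocyte marker mean as a covariate brought it to 0.49, which was called (limma adjusted p = 0.0475). Mock fat itself was lower at 8 weeks than at 2 weeks by a change of -0.79 that was not called (SE 0.28, unadjusted p = 0.0183, limma adjusted p = 0.789). In weeks 2 and 4 Retn averaged 2428 ± 592 TPM in mock fat and 2260 ± 774 TPM in CAC fat (SD, n = 10 each). NCAC against mock fat at 8 weeks gave 0.65, which was not called (SE 0.26, unadjusted p = 0.0276, limma adjusted p near 1).

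The transcript of adiponectin, a protein that improves insulin action in liver and muscle, fell in CAC against NCAC fat. It was not called against mock fat. Adipoq averaged 3283 ± 442 TPM in CAC fat at weeks 6 and 8 (SD, n = 12), against 4426 ± 1198 TPM in NCAC and 3959 ± 1384 TPM in mock fat (n = 10 each). CAC libraries at 8 weeks ran from 2646 to 3722 TPM with a median of 3335, the NCAC libraries had 3998, 6585, 3649.8, 3984 and 6205 TPM, and the mock libraries had 5904, 1789, 2443, 5282 and 2649 TPM. CAC levels were close together, while mock levels lay on both sides of them. Against NCAC fat Adipoq fell by 0.41 (SE 0.13, limma adjusted p = 0.0389). Below every NCAC library of their week were 6 of the 12 from CAC. Leaving out any 1 of 9 of the 22 libraries lost the call, with adjusted p up to 0.0910: CAC 6 weeks replicate 1, CAC 8 weeks replicates 1, 5 and 6, NCAC 6 weeks replicates 2 and 3, and NCAC 8 weeks replicates 2, 4 and 5. Against mock fat the change was -0.17 (SE 0.17, limma adjusted p = 0.557, 95% interval -0.53 to 0.18). The adipocyte markers moved beside it, with 5 of 16 lower and 1 higher against NCAC fat, and with their mean as a covariate the change of Adipoq was -0.16 (limma adjusted p = 0.418). All 62 libraries in 1 fit (limma adjusted p = 0.101) and the urothelial covariate (0.187) also ended the call. Among 6 tested genes listed for adiponectin folding and release, 1 fell against mock fat and 2 fell against NCAC fat. Of all genes 6.65% were called lower against mock fat. Against NCAC fat 8.60% were called higher and 6.39% lower. Ccdc80 was one of the listed genes that fell in both, at 77.4 ± 40.4 TPM in CAC, 257 ± 162 TPM in NCAC and 249 ± 159 TPM in mock fat. It was thus the only call of this list against mock fat. Ccdc80 encodes a secreted protein and is not an established folding or release factor of adiponectin.

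**Figure D3:**
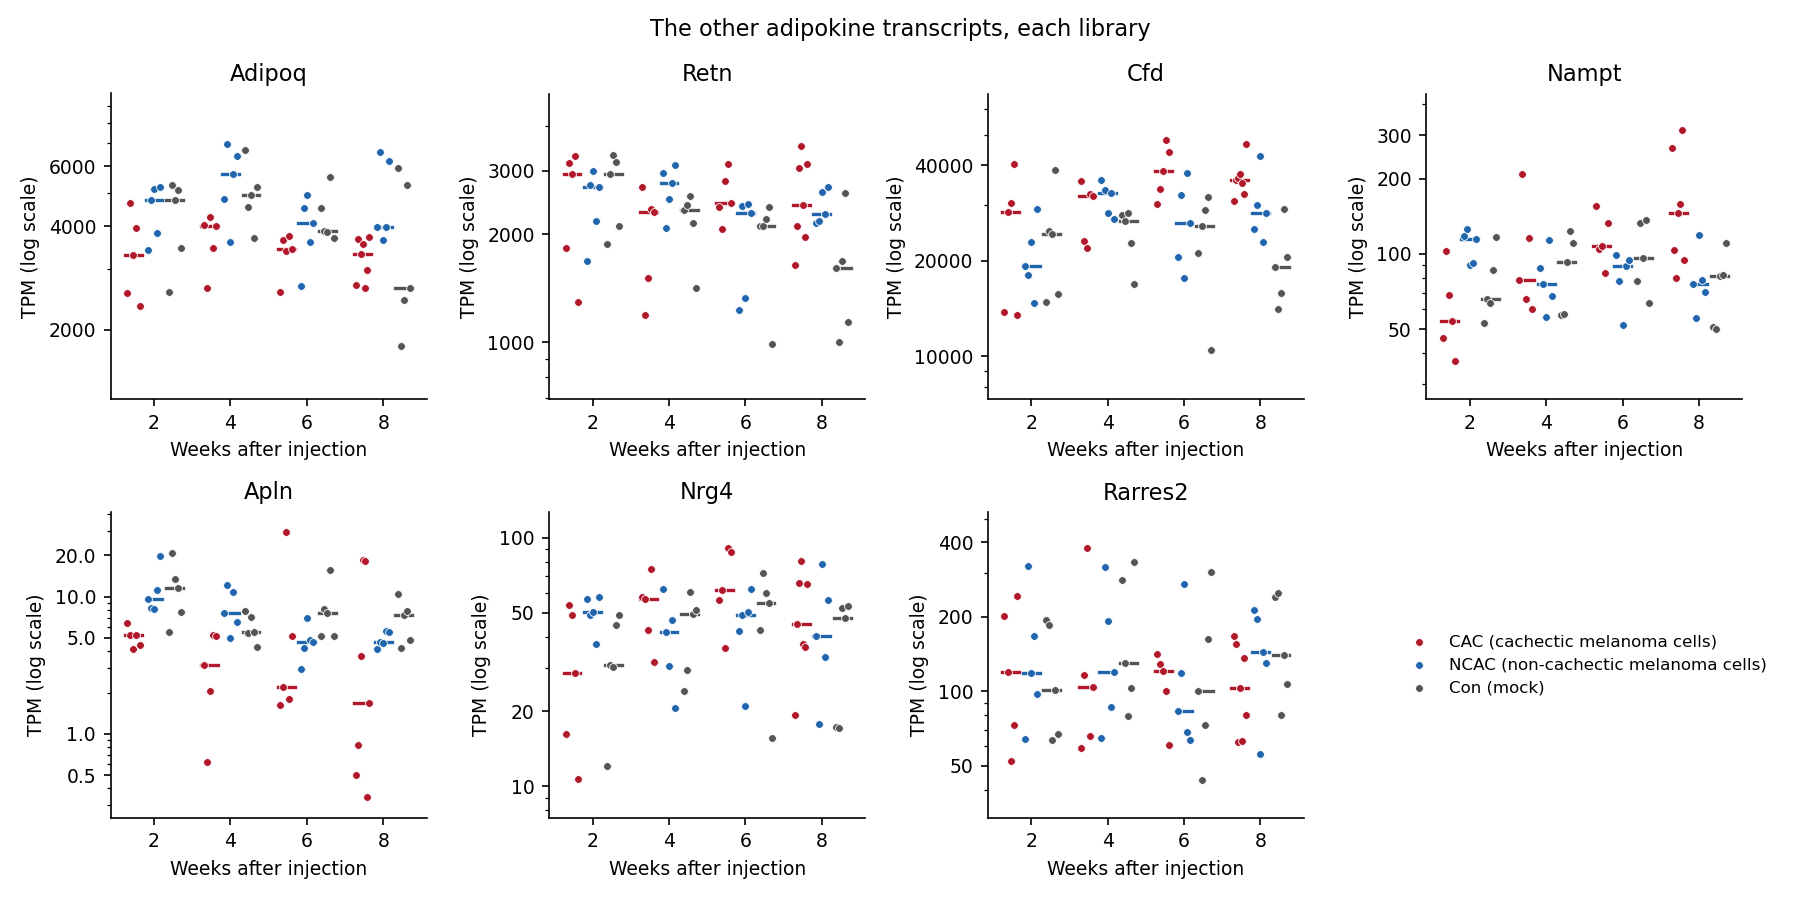
Level of the other 7 members in each library in TPM on log axes, by weeks after injection, for CAC, NCAC and Con. Points are libraries and bars medians. At 8 weeks the CAC points for Cfd run from 30797 to 46682 TPM, all above the mock points.

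Nampt makes the precursor of NAD from nicotinamide inside cells and is also released from them. Its level in CAC fat averaged 146 ± 73.5 TPM at weeks 6 and 8 (SD, n = 12), against 81.3 ± 20.3 TPM in NCAC and 88.4 ± 30.9 TPM in mock fat (n = 10 each). In week 8 the CAC libraries had 267, 104, 80.4, 145, 159, 315 and 94.3 TPM, those of NCAC had 75.9, 55.6, 119, 78.9 and 70.3 TPM, and those of mock had 50.8, 50.1, 81.3, 82.4 and 110.9 TPM. The 2 highest CAC libraries exceeded every other library of the series, and the lower CAC libraries overlapped both other arms. Against NCAC fat Nampt rose by 0.73 (SE 0.21, limma adjusted p = 0.0237), with 8 of 12 CAC libraries above every NCAC library of their week. That call was lost in 1 of 22 leave-one-out fits, without NCAC 8 weeks replicate 2 (limma adjusted p = 0.0570). With the adipocyte marker mean as a covariate the change was 0.31 (limma adjusted p = 0.314), and with the urothelial covariate it was 0.49 (limma adjusted p = 0.271). Against mock fat the change of 0.66 missed the threshold (SE 0.24, limma adjusted p = 0.0714), with 5 of 12 libraries above every mock library. At 2 weeks the direction was the opposite, with 46.0, 103, 68.2, 54.1 and 37.3 TPM in CAC fat, against 118, 126, 90.3, 91.9 and 115 TPM in NCAC fat. That early change of -0.88 was not called (SE 0.25, unadjusted p = 0.00494, limma adjusted p = 0.922), and it was -0.45 with the adipocyte covariate. The difference between the late and the early effect against NCAC fat was 1.01 (SE 0.31, unadjusted p = 0.00245) and did not pass adjustment either (limma adjusted p = 0.132).

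Among 12 other genes of NAD salvage and use, 3 rose and 1 fell in CAC against mock fat, and 4 rose and 1 fell against NCAC fat. The shares of all genes called were 4.94% higher and 6.65% lower against mock fat, and 8.60% and 6.39% against NCAC fat. Nmnat3, which completes NAD synthesis in mitochondria, was at 21.97 ± 8.28 TPM in CAC fat and 10.3 ± 3.38 TPM in mock fat, a change of 1.01 (SE 0.20, limma adjusted p = 0.00229). Naprt, which starts NAD synthesis from nicotinic acid, changed by 0.57 (SE 0.10), and Cd38, an enzyme that consumes NAD, by 0.77 (SE 0.17). Nmnat2 fell by 0.57 (SE 0.12) at levels under 1 TPM in both arms.

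**Figure D4:**
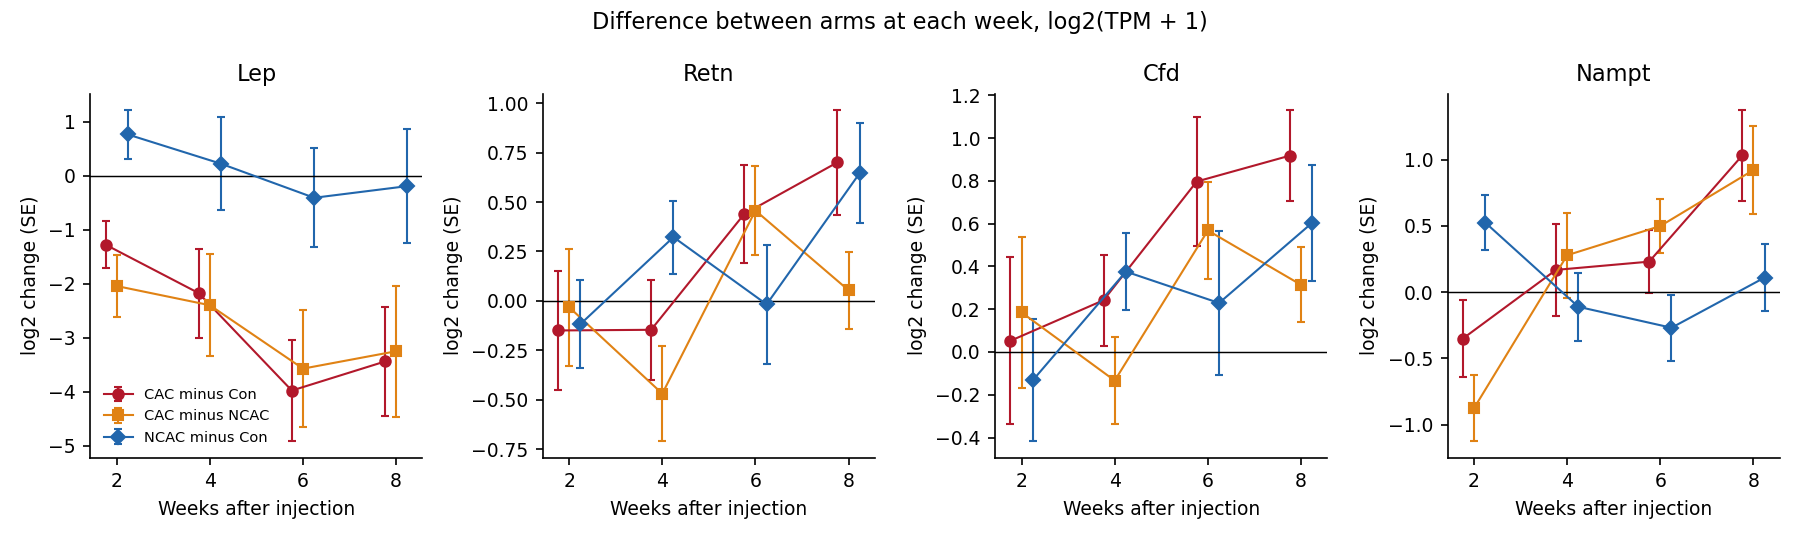
Difference between arms on the log2(TPM + 1) scale at each week for Lep, Retn, Cfd and Nampt, with bars of 1 SE, for CAC minus Con, CAC minus NCAC and NCAC minus Con. Lep in CAC minus Con lies at -1.28, -2.17, -3.98 and -3.44 over the 4 weeks, and only Cfd in CAC minus Con at 8 weeks, at 0.92, was called in a single week.

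Apelin, a peptide that acts on the vessel and heart receptor Aplnr, was the least abundant member, and its CAC libraries at 8 weeks lay on both sides of the other arms. In week 8 CAC libraries had 0.498, 0.829, 3.68, 18.5, 18.3, 0.348 and 1.67 TPM, those of NCAC had 4.19, 4.65, 4.59, 5.64 and 5.48 TPM, and those of mock had 10.6, 4.22, 7.36, 7.84 and 4.82 TPM. Of these CAC libraries 5 lay below both other arms and 2 lay above them. At 6 weeks 1 CAC library had 29.6 TPM while the other 4 had 1.62 to 5.15 TPM. Over the 2 weeks 8 of 12 CAC libraries lay below every mock library of their week and 3 above, and the change was -0.82 (SE 0.48, limma adjusted p = 0.289). NCAC against mock fat gave -0.51 (SE 0.18, unadjusted p = 0.0119, limma adjusted p = 0.871). At 2 weeks Apln was at 4.16 to 6.45 TPM in CAC, 8.14 to 19.8 TPM in NCAC and 5.54 to 20.8 TPM in mock libraries. CAC and NCAC libraries did not overlap then, as was so in this direction for 0.535% of genes, yet the change of -0.96 was not called (SE 0.24, unadjusted p = 0.00244, limma adjusted p = 0.922). At 4 weeks Apln in CAC fat changed by -0.87 against mock fat and by -1.25 against NCAC fat, with limma adjusted p near 1 and of 0.981. The first of these was -0.56 without CAC replicate 2. Its receptor Aplnr fell against mock fat, with 18.8 ± 6.39 TPM in CAC (SD, n = 12) and 28.4 ± 7.61 TPM in mock fat (n = 10), a change of -0.60 (SE 0.19, limma adjusted p = 0.0471). That call was lost in 15 of 22 leave-one-out fits.

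Neuregulin 4, an adipocyte ligand of the ErbB receptors on liver cells, and chemerin, an attractant of immune cells through Cmklr1, were not called in any comparison. Nrg4 averaged 56.8 ± 22.6 TPM in CAC fat at weeks 6 and 8 (SD, n = 12), 45.01 ± 18.4 TPM in NCAC and 43.3 ± 19.9 TPM in mock fat (n = 10 each), and its change against mock fat was 0.48 (SE 0.29, 95% interval -0.11 to 1.07). Rarres2 averaged 109.9 ± 37.6 TPM in CAC, 134 ± 72.4 TPM in NCAC and 150.3 ± 87.3 TPM in mock fat, with a change of -0.32 (SE 0.29, 95% interval -0.92 to 0.29). All 3 arms overlapped for both genes, and both carry the doubt about the opposite strand.

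Receptors of the members were also measured in fat itself. The list of 11 tested also held Insr, the insulin receptor, and C3ar1, the receptor of a C3 fragment. Neither is a receptor of any of the 8. In this list 2 rose and 1 fell against mock fat, where 4.94% of all genes were called higher and 6.65% lower. Against NCAC fat 2 rose and 0 fell, where 8.60% of all genes were called higher and 6.39% lower. Insr was 1 of the 2 that rose in both. Adipor2, an adiponectin receptor, was at 546 ± 90.6 TPM in CAC fat and 363 ± 60.0 TPM in mock fat, a change of 0.60 (SE 0.11, limma adjusted p = 0.00199). Insr also changed by 0.60 (SE 0.14). Adipor1 was at 69.0 and 67.4 TPM in CAC and mock fat and was not called. Lepr, the leptin receptor, was at 16.3 ± 25.0 TPM in CAC fat, 4.30 ± 4.81 TPM in NCAC and 5.79 ± 4.65 TPM in mock fat and was not called (limma adjusted p = 0.437 against mock fat). Cdh13, Cmklr1 and Erbb3 were not called in either comparison, and Erbb4 was below the filter.

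Genes that act downstream of the leptin receptor and of other cytokine receptors were higher in CAC than in mock fat for 3 of 8, and 0 were lower. Of all genes 4.94% were called higher and 6.65% lower in that comparison. Socs3, an inhibitor that STAT3 induces, was at 35.1 ± 16.5 TPM in CAC fat and 13.5 ± 10.9 TPM in mock fat, a change of 1.46 (SE 0.34, limma adjusted p = 0.00815). Stat3 changed by 1.09 (SE 0.25), and Cish, a related inhibitor, by 1.22 (SE 0.39). The call of Cish was lost in 17 of 22 leave-one-out fits. Among 14 transcription factors and signals known to act on Lep, 2 rose and 3 fell, beside the same shares over all genes. Cebpd, a C/EBP factor, reached 26.9 ± 18.3 TPM in CAC fat, against 7.11 ± 5.16 TPM in mock fat, a change of 1.71 (SE 0.38, limma adjusted p = 0.00641), while Irs1, an adaptor of the insulin receptor, fell by 0.59 (SE 0.13). Nr3c1, the glucocorticoid receptor, fell by 0.57 (SE 0.14), and Adrb3, the beta-3 adrenergic receptor, fell by 0.90 (SE 0.29), with that call lost in 15 of 22 leave-one-out fits. Cebpa, Pparg and Srebf1 were in the list and were not among the genes called.

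Of 20 other secreted factors of fat that could be tested, 2 rose and 5 fell in CAC against mock fat. Limma called 4.94% of all genes higher and 6.65% lower there, and 8.60% and 6.39% against NCAC fat. Lcn2, an iron-siderophore carrier of the acute phase, was at 65.1 ± 38.0 TPM in CAC fat (SD, n = 12) and 43.2 ± 127 TPM in mock fat (n = 10), where the SD exceeded the mean. Its change was 3.10 (SE 0.74, limma adjusted p = 0.00918). Rbp4, the retinol carrier, had 378 ± 237 TPM in CAC fat, against 850.7 ± 312 TPM in mock fat, a change of -1.36 (SE 0.34, limma adjusted p = 0.0134). Retnla, a relative of resistin made by macrophages in the mouse, had 199.9 ± 118 TPM in CAC fat, against 518 ± 242 TPM in mock fat, also a change of -1.36 (SE 0.29). C1qtnf3, a relative of adiponectin, fell by 2.15 (SE 0.57). Against NCAC fat 2 rose and 3 fell, among them Angptl4, an inhibitor of lipoprotein lipase, at 108 ± 55.1 TPM in CAC and 207 ± 95.8 TPM in NCAC fat. The median log2 change against mock fat was 0.41 in the complement list, 0.19 in the NAD list, 0.02 for the receptors and -0.16 in the adiponectin list. It was 0.21 for the regulators of Lep, 0.15 for STAT3 signalling and -0.49 for the other secreted factors, beside -0.06 over all genes tested. Without the urothelial libraries the calls against mock fat were 2 higher and 1 lower in the complement list and 1 higher in the NAD list. The other 5 lists had 0. In that smaller set limma called only 82 genes higher and 36 lower of the 14577 tested, so few calls are found in any list.

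Across the 62 libraries the members did not form 1 group. With each group's mean removed, Pearson's r of log2(TPM + 1) was 0.79 between Retn and Cfd, 0.58 between Cfd and Nrg4, and 0.56 between Lep and Adipoq. Rarres2 ran against Nrg4 (r = -0.65) and Cfd (r = -0.54), and Lep ran against Nampt (r = -0.44). These libraries share tissue make-up and scaling, so the values describe the series. Adipoq lay closest to the mean of the adipocyte markers (r = 0.80 within groups), followed by Retn (0.61), Cfd (0.58), Nrg4 (0.56) and Lep (0.43), while Nampt (0.04) and Rarres2 (-0.21) did not follow it. The 2 CAC libraries at 8 weeks with the least Lep in the series, at 0.0212 and 0.174 TPM, had the most Nampt, at 267 and 315 TPM, and the least Apln, at 0.498 and 0.348 TPM. Their Adipoq, at 2699 and 2981 TPM, lay within the range of the other CAC libraries at that week. Their adipocyte marker means did not, at 9.18 and 9.45 log2 units against 9.57 to 10.18 in the others. Retn (1647 and 1964 TPM) and Nrg4 (19.3 and 36.3 TPM) also lay below every other CAC library of that week. These 2 libraries were singled out after their values were seen, and their urothelial sums were 87.1 and 182 TPM.

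**Figure D5:**
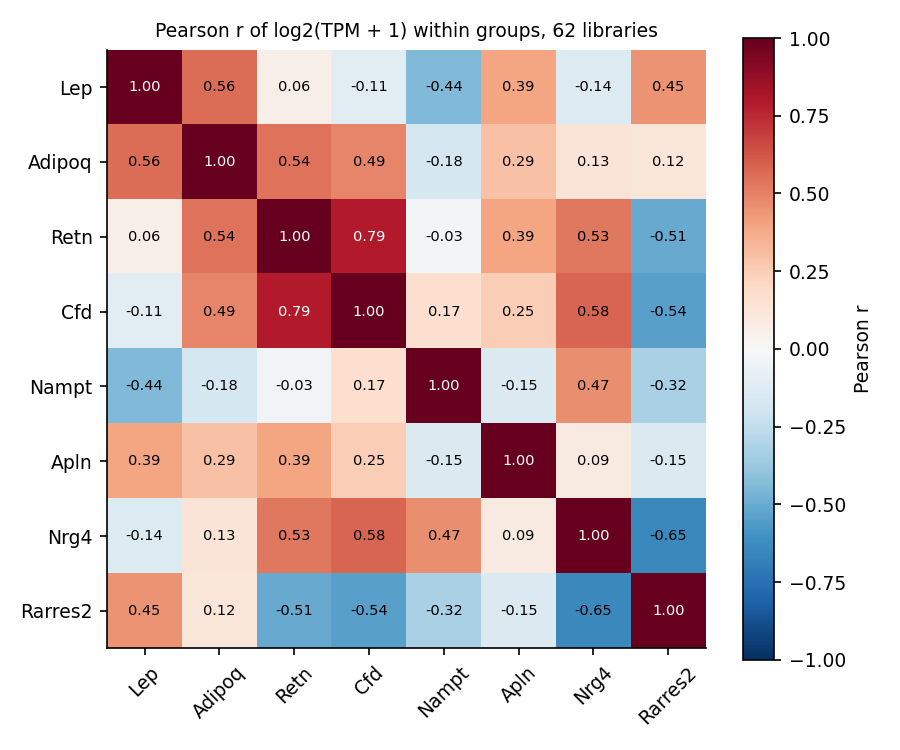
Pearson correlation between the members over 62 libraries on the log2(TPM + 1) scale, after each group's mean was removed. Red is positive and blue negative, with Retn and Cfd at 0.79 and Nrg4 and Rarres2 at -0.65.

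The genes most like each member over the 62 libraries, among 9728 that averaged 5 TPM or more once predicted, Rik-named and mitochondrially encoded genes were set aside, differed from member to member. They were chosen over all libraries, arm differences included, so a change like that of the member is built into the choice and their changes are not tested here. For Lep they were Fads3 (r = 0.950), Reep5 (0.928), Sncg (0.920), Ehd2 (0.920) and Cav1 (0.915), and with each group's mean removed their r with Lep was 0.918, 0.881, 0.870, 0.848 and 0.826. Sncg encodes a synuclein and Cav1 the coat protein of caveolae. For Nampt they were Lpin1 (0.901), Pdk2 (0.847) and Glul (0.842), with 0.873, 0.826 and 0.797 once group means were removed. For Cfd they were Sod1 (0.852), Aldh2 (0.809) and Mgst1 (0.802), and for Retn the peroxisome genes Pex16 (0.822) and Pex11a (0.815) and the enzyme gene Gstz1 (0.803). Art3, Cd36 and Hoxc8 were most like Adipoq (0.899, 0.872 and 0.863), and Sc5d, Pnpla3 and Cpped1 most like Apln (0.816, 0.799 and 0.752). Slc5a6, Acsl1 and Gys1 were most like Nrg4 (0.899, 0.834 and 0.808), and App, Itgb5 and Arhgef10 most like Rarres2 (0.937, 0.931 and 0.930).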

How the data were processed

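RNA of whole white fat from 62 libraries was extracted with Trizol and sequenced from TruSeq stranded mRNA libraries on an Illumina NovaSeq, per the labels' protocols. The authors deposited TPM values per gene, with the build mm10 per the submitters' processing notes, while the aligner, counter and annotation were not given in the sources used here. Each library summed to 1000000 TPM, so depth is unknown. One passage of the protocol text speaks of another tumour model and a time that no sample carries. Groups came from the sample descriptions.

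Genes averaging 0.5 TPM or more were tested on log2(TPM + 1) with limma 3.58.1 in R 4.3.3 (moderated fit with trend and robust options), with Benjamini-Hochberg adjustment and a threshold of 0.05. Fold changes on this scale understate those of low genes. There were 18 comparisons: 12 within weeks, 3 over weeks 6 and 8 with week as a term, 2 of late against early effects, and mock fat at 8 against 2 weeks. The fits were tested on simulated data. Alternatives were a pseudocount of 0.1, other filters, median-ratio scaling, removal of mitochondrially encoded genes, a replicate block, all 62 libraries in 1 fit, marker covariates, libraries over 100 TPM of urothelial genes left out, and each library left out.

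The members and gene lists were chosen with earlier results of these data known. Genes named in the text were the 8 members, 8 of their receptors, up to 3 called genes in each direction with the largest change in each pathway list, 5 genes most like Lep and 3 most like each other member, and markers where a summed level is described. Cebpa, Pparg and Srebf1 fall outside that rule and were named after their values were seen.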

Additional observations from a re-analysis of the deposited data

Results flagged for a closer look

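In 12 of the 96 sets formed by a member and a group, 1 library stood apart by Dixon's test at the 95% level. The test flags about 1 group in 20 by chance when values are normally distributed. It was run on TPM and not on the log2 scale, and a normal spread of TPM was not checked. The 12 flags can therefore not be set against that rate. For Lep these were NCAC 2 weeks replicate 2 at 1162 TPM (the others 149.95 to 346 TPM), mock 2 weeks replicate 2 at 359 TPM (161 to 196 TPM), and CAC 4 weeks replicate 3 at 284 TPM (13.1 to 61.6 TPM). Lep also stood apart in NCAC 4 weeks replicate 2 at 1670.2 TPM (67.3 to 385 TPM) and in NCAC 6 weeks replicate 3 at 749 TPM (19.5 to 173 TPM).

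Retn stood apart in mock 6 weeks replicate 5, with 992 TPM beside 2111 to 2379 TPM in the others. Cfd did so in CAC 8 weeks replicate 7, with 46682 TPM beside 30797 to 37620 TPM. For Apln the libraries were CAC 6 weeks replicate 3 at 29.6 TPM (the others 1.62 to 5.15 TPM), NCAC 2 weeks replicate 5 at 19.8 TPM (8.14 to 11.2 TPM) and mock 6 weeks replicate 4 at 15.7 TPM (5.14 to 8.08 TPM). For Rarres2 they were CAC 4 weeks replicate 3 at 379.6 TPM (58.8 to 116 TPM) and NCAC 6 weeks replicate 3 at 271 TPM (63.6 to 119 TPM). CAC 4 weeks replicate 3 and NCAC 6 weeks replicate 3 each stood apart for both Lep and Rarres2.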

How the results depend on the processing

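For CAC against mock fat at weeks 6 and 8, the 3 members called became 1 with the replicate block and 0 without the urothelial libraries. For CAC against NCAC fat at those weeks, the 4 called became 2 with all 62 libraries in 1 fit and 2 with the adipocyte covariate. The 2 with the adipocyte covariate were Cfd and Retn, and Retn was not among the 4. The count was 0 with the urothelial covariate and 0 without the urothelial libraries. Over all genes, all 62 libraries in 1 fit called 1334 higher and 641 lower there. For CAC against mock fat at 8 weeks, the 1 member called became 3 with all 62 libraries or the adipocyte covariate. It became 0 with median-ratio scaling, the replicate block, the urothelial covariate or the urothelial libraries left out. In all, 158 genes called higher and 290 called lower became 536 and 450 with all 62 libraries. With the adipocyte covariate they were 294 and 1603, and with median-ratio scaling 598 and 850. They were 23 and 7 with the block, 58 and 97 with the urothelial covariate, and 1 and 1 without the urothelial libraries. In CAC against mock fat at 6 weeks 1 member was called with all 62 libraries, where 142 genes in all were called higher and 43 lower. Against NCAC fat at 6 weeks all 62 libraries called 491 genes higher and 64 lower, and the block 594 and 221. At 8 weeks all 62 libraries called 350 higher and 261 lower. Of the members 1 was called at 6 weeks with all 62 libraries and 2 with the block. At 8 weeks 1 member was called with all 62 libraries. Leaving out 1 library at a time gave 0 to 1 calls for CAC against mock fat at 8 weeks, 0 to 2 against NCAC fat at 8 weeks (2 without NCAC replicate 3), 2 to 4 against mock fat at weeks 6 and 8, 1 to 4 against NCAC fat at those weeks (1 without NCAC 8 weeks replicate 2), and 0 to 1 for the late against early effect relative to NCAC fat (1 without CAC 4 weeks replicate 2). Changes that turned sign were all of NCAC against mock fat at weeks 6 and 8 and none was called: Lep 0.0833 and Rarres2 0.15 and Nrg4 -0.0848 with the urothelial covariate, Adipoq -0.0583 and Nrg4 -0.0338 with the adipocyte covariate, and Nampt 0.0380 and Rarres2 0.000916 with median-ratio scaling. Their ranges with 1 library left out were -0.59 to 0.15 for Lep, -0.16 to 0.00489 for Nampt, -0.0456 to 0.24 for Nrg4 and -0.28 to 0.0513 for Rarres2. Median-ratio scaling moved the median change of all genes in that comparison to -0.00, from the -0.11 of unscaled values. For the count of all genes called, CAC against mock fat at weeks 6 and 8 gave 720 higher and 970 lower, but 1647 and 1927 with median-ratio scaling, 673 and 3383 without mitochondrially encoded genes, 866 and 2120 with the adipocyte covariate, 331 and 182 with the block, and 82 and 36 without the urothelial libraries. Against NCAC fat 1253 higher and 931 lower became 1672 and 1814 with median-ratio scaling, 950 and 2164 without mitochondrially encoded genes, 435 and 552 with the adipocyte covariate, 308 and 420 with the urothelial covariate, and 251 and 79 without the urothelial libraries. Replicate numbers did not pair the samples: 20 of 60 same-numbered pairs had a correlation over 0.1, from -0.65 to 0.57. With the replicate block the change of Lep against mock fat at weeks 6 and 8 was -3.47 (limma adjusted p = 0.0582, range over the other alternatives and this one 0.000176 to 0.0869). The block also lost the calls of Retn in that comparison (0.57, limma adjusted p = 0.0711) and of Cfd against mock fat at 8 weeks (0.88, limma adjusted p = 0.220). The cause of these shifts was not tested, though the settings that leave libraries out have fewer samples by construction. Depth is unknown, and of 192 rescaled group means 66 moved by more than 1 SD.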
